A study of Mus musculus with 6 samples.

Results

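The 42 genes described here serve neurogenesis and the first differentiation of neurons. They were listed by name for that function, with no measured value in the rule, and each was found among the 55401 gene identifiers of the count table. The list was nevertheless drawn up with earlier results of these data known. The RNA came from whole mouse embryos at E10.5, on the C57BL/6J background. WT littermates were compared with 5C embryos, which carry tandem extra copies of the microRNA gene *Mir483*, inserted at the endogenous *Igf2* locus and inherited from chimeric males. There were 3 libraries per genotype, and each library was a pool of 2 embryos, stated to be male. 5C was the only array of this kind to pass through the germline, so the genotype is represented by 1 array. The study reports that all embryos with it arrested in development and were lost in midgestation. It found severe growth restriction of the fetuses shortly after the age sampled here. Whether the 5C pools were already delayed was not tested.

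*Mir483* itself checks the genotype labels. It was at 0.577, 0.429 and 0.319 CPM (counts scaled to a common library size) in WT replicates 1, 2 and 3, the order kept below, and at 5.15, 4.35 and 2.56 CPM in 5C, where every library was above every WT library. Library totals ran from 6357343 to 19151368 counts, and no pair of libraries had counts as alike as sampling noise would make them. Some libraries stood apart. Summed over 4 Y-linked genes, the level was 4.12 CPM in WT replicate 2 and 0.0854 CPM in 5C replicate 2 against 130 to 212 CPM in the other 4, so the 2 libraries numbered 2 did not match a pool of males. WT replicate 1 held 6319 CPM of 10 visceral endoderm markers of the yolk sac against 179 to 1270 CPM in the other 5 libraries. All 10 were lower in 5C, 3 of them at an unadjusted p under 0.05, with a median log2 fold change of -2.12, but without WT replicate 1 that median was 0.73. Of 6 decidua markers 5 were tested, 4 of them higher in 5C and 2 at an unadjusted p under 0.05, with a median log2 fold change of 1.63 and summed levels of 33.0 to 69.5 CPM in 5C and 23.9 to 66.7 CPM in WT. All 6 heart muscle markers were lower in 5C, with a summed level of 381 to 414 CPM against 449 to 588 CPM in WT, and 9 erythroid markers summed to 8435 to 16520 CPM in 5C and 9243 to 12725 CPM in WT. The part that these differences have in the results below was not tested, beyond the values given without single libraries.

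In the mid-gestation embryo, neurons arise in the neural tube and in the cranial and dorsal root ganglia. Proneural basic helix-loop-helix (bHLH) factors, the neurogenins first and the NeuroD and NHLH factors after them, push progenitors out of the cell cycle, while Notch signalling between neighbouring cells holds others back as progenitors. The young neuron then makes RNA-binding proteins of the ELAV family, a neuronal tubulin, microtubule regulators and neurofilaments for its axon, transcription factors that set its subtype, and at last the enzymes and carriers of its transmitter. In bulk RNA of whole embryos, fewer neurons and less RNA per neuron cannot be told apart.

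The microRNA hairpin gives a pair of mature strands, and a microRNA pairs with its targets mainly through its seed, bases 2 to 8. The mature strands are shown because they are what the array adds. They lie on chromosome 7, minus strand, of GRCm38.p6, at 142654932 to 142654952 for miR-483-3p and at 142654968 to 142654989 for miR-483-5p (RefSeq). The seed is in capitals.
miR-483-3p: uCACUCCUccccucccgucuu
miR-483-5p: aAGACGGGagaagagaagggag

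Sites complementary to a seed were searched in the 3′ UTR of each gene's longest coding transcript (GENCODE M21, GRCm38). Of the 41 members with enough counts to be tested, 5 carried the complement of the miR-483-3p seed (12.2%, against 12.5% of 13886 tested genes with a 3′ UTR) and 3 that of the miR-483-5p seed (7.32%, against 3.44%). The matches are shown for every member with one except *Onecut2*, the match in capitals.
*Elavl4*, miR-483-3p, chr4:110205354-110205360, minus strand: tgctagggaaaAGGAGTGttcg
*Map2*, miR-483-3p, chr1:66439056-66439062, plus strand: gagctcttggcAGGAGTGggct
*Neurog1*, miR-483-3p, chr13:56250720-56250726, minus strand: aaggagccacaAGGAGTGggct
*Slc17a6*, miR-483-3p, chr7:51669917-51669923, plus strand: gaactcttactAGGAGTGcaca
*Mnx1*, miR-483-3p, chr5:29473586-29473592, minus strand: ctaccctttctAGGAGTGgctc
*Nhlh2*, miR-483-5p, chr3:102013818-102013824, plus strand: tccaaaaacacCCCGTCTattt
*Mapt*, miR-483-5p, chr11:104329998-104330004, plus strand: gccctttctttCCCGTCTtcgc

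*Onecut2* was the third member with a miR-483-5p match. The 5 members with a miR-483-3p match had log2 fold changes, 5C over WT, of 0.07 to 0.31, and the 3 with a miR-483-5p match of -0.08 to 0.23. Over the 8 members with either match the median was 0.20, and over the 33 with neither it was 0.05. Every member with a miR-483-3p match had a positive difference in this fit, and *Onecut2* was the 1 member with a match whose difference was negative. Of all 41 members tested, 29 were positive, and *Mnx1* was at -0.04 without WT replicate 2. The difference between members with and without a match was not tested. A match of 7 bases is a description of the letters and does not show that the site is used.

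The levels of the members were compared with each other per kilobase of exon. *Tubb3*, which codes for the β-tubulin of neurons, was the most abundant at 121 ± 6.76 CPM per kilobase in WT (SD, n = 3), followed by *Nefl*, the light neurofilament chain, at 44.5 ± 1.44 and *Gap43*, a protein of the growth cone, at 38.3 ± 5.06. *Tubb3* stood clear of the rest, while the SD ranges of *Nefl* and *Gap43* touched. At the other end were *Gad1*, which makes GABA, at 0.289 ± 0.153, *Chat*, which makes acetylcholine, at 0.242 ± 0.0115, and *Pou4f2*, a factor of retinal ganglion and sensory neurons, at 0.202 ± 0.0838 CPM per kilobase. The spreads of these last 3 overlapped. The top 3 were thus genes of the cytoskeleton and growth cone, and 2 of the bottom 3 were transmitter enzymes, although the roles overlapped in level. *Th*, the enzyme that starts catecholamine synthesis, was at 2.02 ± 0.415 CPM per kilobase in WT. The cytoskeletal genes *Prph* at 1.89 ± 0.529 and *Mapt* at 1.84 ± 0.253 lay within its spread. In 5C, *Prph* at 2.28 was above *Th* at 2.15 CPM per kilobase.

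**Figure D1:**
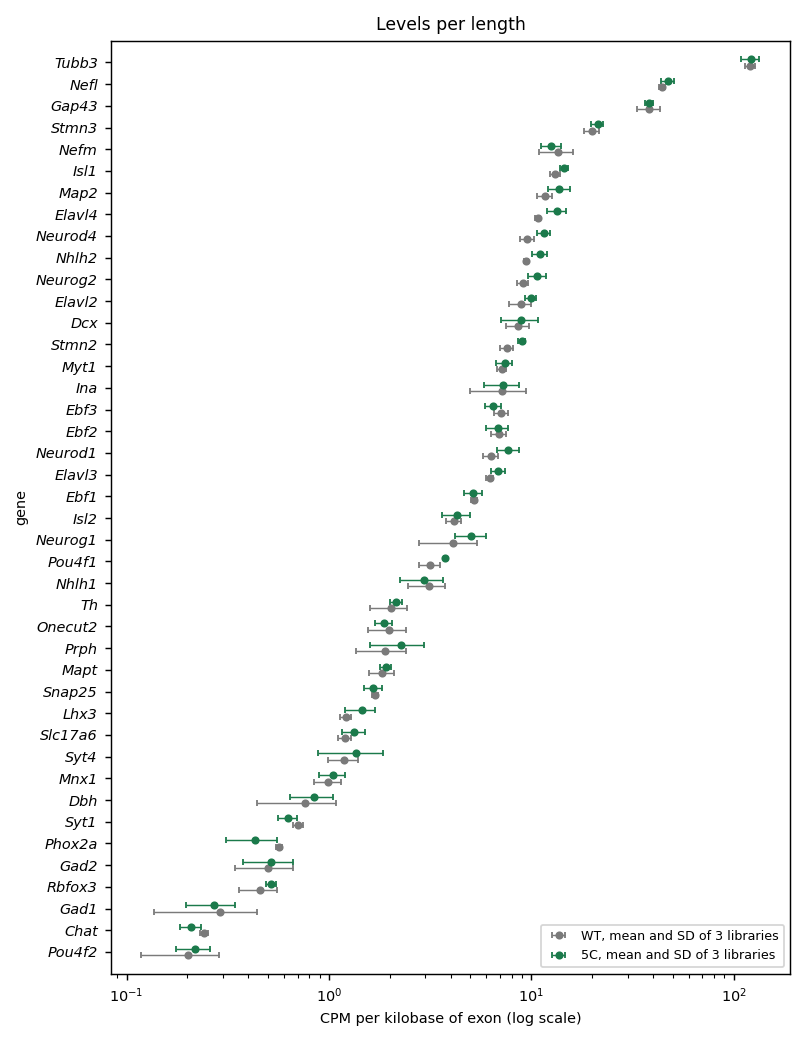
Level of each of the 42 members in CPM per kilobase of exon (x axis, log scale), as the mean and SD of the 3 WT (grey) and the 3 5C (green) libraries, ordered by the WT mean. *Tubb3* stands at the top at 121 CPM per kilobase in WT and *Pou4f2* at the bottom at 0.202, and the WT and 5C points lie close together beside that range.

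Whether the array moved these genes was asked with edgeR's quasi-likelihood test over all 16784 genes that passed the count filter. *Pou4f2* did not pass it, with counts of 9, 6 and 6 in WT and 14, 7 and 9 in 5C, and is given by its level alone. A differentially expressed gene (DEG) needed a Benjamini-Hochberg adjusted p under 0.05 and a change of over 1.5-fold. No member was a DEG, against 0% of all genes tested, and DESeq2 and limma-voom also gave 0 among the members. The edgeR fit used here called no gene at all, so this outcome is not particular to the members. Even *Mir483*, at a log2 fold change of 3.05, had an adjusted p of 0.17 in edgeR's quasi-likelihood test. The study, by contrast, reported DEGs between these genotypes, most of them lower with the array, from a quasi-likelihood test with the same thresholds. The reason for this disagreement was not tested. The smallest adjusted p of a member was 0.781 in edgeR's quasi-likelihood test.

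At an unadjusted p under 0.05, 6 members were higher in 5C, 14.6% of those tested against 2.55% of all genes, and 0 were lower, against 3.47% of all genes. DESeq2 and limma-voom each put 5 members higher at that threshold. In 9 members (22.0%, against 6.26% of all genes) every 5C library lay above every WT library: *Neurod1*, *Neurod4*, *Nhlh2*, *Elavl3*, *Elavl4*, *Stmn2*, *Map2*, *Isl1* and *Pou4f1*. In 2 members, *Phox2a* and *Chat* (4.88%, against 5.1% of all genes), every 5C library lay below. The median log2 fold change of the 41 members was 0.07, against -0.002 over all genes tested, with 29 members above 0 and 12 below. The members share tissue and libraries, so these counts do not come from independent observations. They were also chosen with earlier results of these data known, so the shares are a description and no list test was made.

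The differences were small. The member with the largest positive difference, *Elavl4*, was 24.1% higher in 5C on the fitted scale, and the lowest log2 fold change was -0.38 for *Phox2a*, which was at -0.20 without 5C replicate 2. For 30 members the 95% interval of the fold change lay within 1.5-fold in either direction, and for 39 within 2-fold. The interval reached past 1.5-fold for 11 members, *Neurog1*, *Rbfox3*, *Syt4*, *Prph*, *Phox2a*, *Lhx3*, *Mnx1*, *Gad1*, *Gad2*, *Chat* and *Dbh*, for which a DEG-sized difference could not be told from none at this depth. The median standard error (SE) of a log2 fold change was 0.13, and a ± beside a log2 fold change below is its SE.

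**Figure D2:**
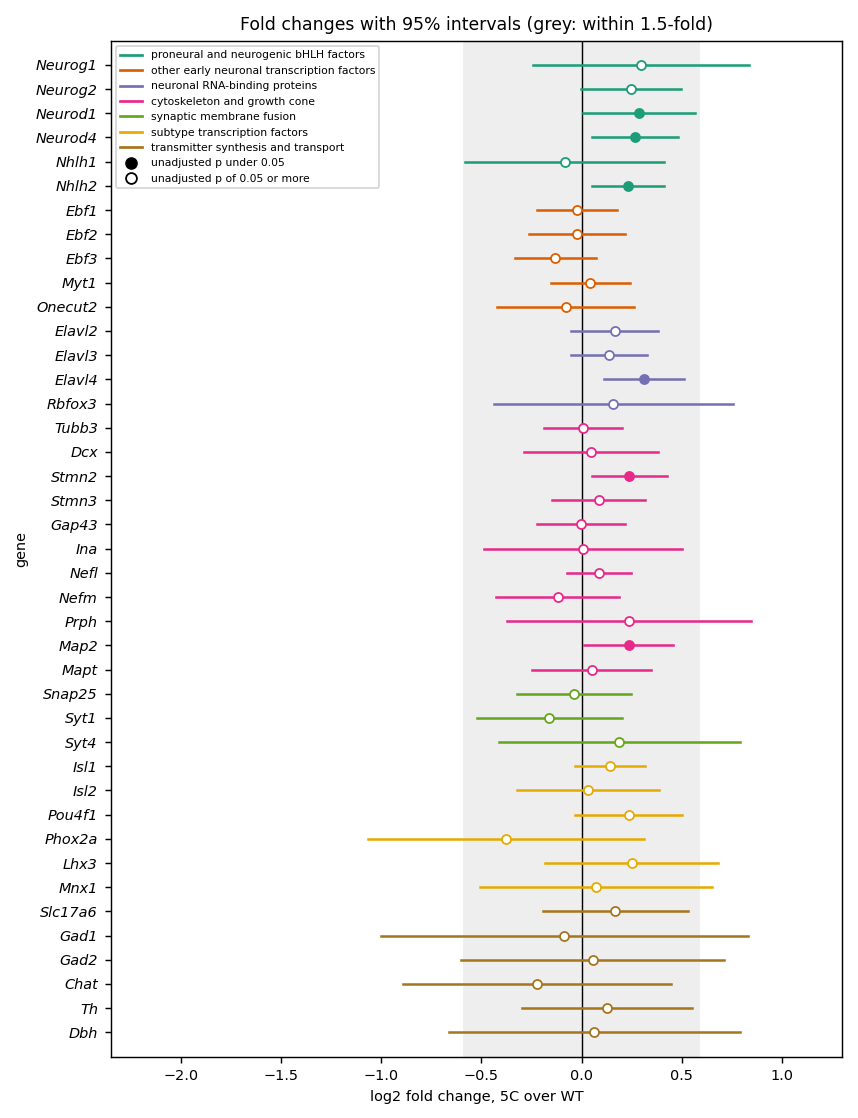
Log2 fold change of 5C over WT for the 41 members tested (points) with 95% intervals (lines), coloured by role, filled where the unadjusted p was under 0.05, with the range within 1.5-fold shaded. The 6 filled points lie between 0.23 and 0.31 and all 6 are positive, and 29 of the 41 points lie right of 0.

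The proneural and neurogenic bHLH factors had the highest median of the 7 roles, a log2 fold change of 0.25. Of the 6, 5 were above 0 and 3 had an unadjusted p under 0.05. *Neurod4*, which acts downstream of the neurogenins in the spinal cord and retina, gave 34.6, 29.6 and 31.9 CPM across the WT replicates and 35.4, 41.2 and 39.2 across the 5C replicates. The genotypes did not overlap, although 5C replicate 1 lay just above WT replicate 1, and the log2 fold change was 0.27 ± 0.10 (SE, n = 3 per genotype; edgeR unadjusted p = 0.0202, adjusted p = 0.781). *Nhlh2*, a bHLH factor of newly born neurons, lay at 51.8, 49.8 and 51.5 CPM in the WT pools, while the 5C pools had 58.0, 65.7 and 56.1 CPM. Its WT libraries were within a narrow band and every 5C library was above it, with a log2 fold change of 0.23 ± 0.08 (SE; edgeR unadjusted p = 0.0180).

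*Neurod1*, which drives differentiation of sensory and other neurons as well as endocrine cells, measured 18.05, 15.5 and 18.2 CPM in the WT libraries against 18.5, 20.8 and 23.7 CPM in the 5C libraries. 5C replicate 1 was barely above the WT libraries, and the log2 fold change was 0.28 ± 0.12 (SE; edgeR unadjusted p = 0.0464). Part of the *Neurod1* exons, 7.37%, overlaps exons of *Cerkl* on the same strand, so some of its counts are uncertain. *Neurog2*, a neurogenin of the spinal cord and cortex, came close to the threshold, with 18.8, 21.4 and 20.4 CPM in the WT libraries against 21.3, 24.2 and 26.2 CPM in the 5C libraries and a log2 fold change of 0.24 ± 0.11 (edgeR unadjusted p = 0.0547). Its genotypes touched, since 5C replicate 1 lay below WT replicate 2. *Neurog1*, the neurogenin of cranial and dorsal root sensory neurons, had a log2 fold change of 0.29 with a wide interval of -0.24 to 0.83 and WT libraries from 4.72 to 9.13 CPM. It was 0.07 without WT replicate 2 and 0.61 without WT replicate 1. *Nhlh1*, the close relative of *Nhlh2*, was the 1 factor below 0, at -0.09 ± 0.22.

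The other early transcription factors lay closer to 0, and their difference from the bHLH factors was not tested. Of *Ebf1*, *Ebf2*, *Ebf3*, *Myt1* and *Onecut2*, 4 were below 0 and 1 above, with a median log2 fold change of -0.02 and none at an unadjusted p under 0.05. *Ebf3*, of the early B-cell factor family that acts in migrating and differentiating neurons, gave 66.1, 60.2 and 70.4 CPM across the WT replicates and 63.4, 62.2 and 53.6 across the 5C replicates, a log2 fold change of -0.13 ± 0.09 (edgeR unadjusted p = 0.182). *Onecut2*, a factor of motor neurons and interneurons, lay at 35.15, 24.3 and 37.0 CPM in the WT pools, while the 5C pools had 33.6, 28.3 and 28.8 CPM, and *Myt1*, a zinc finger factor that favours neuronal fate, measured 53.7, 48.6 and 52.5 CPM in the WT libraries against 55.3, 56.5 and 47.7 CPM in the 5C libraries. Both overlapped between the genotypes, and the lowest library was WT replicate 2 for *Onecut2* and 5C replicate 3 for *Myt1*. *Ebf1* and *Ebf2* both had a log2 fold change of -0.02.

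All 4 neuronal RNA-binding proteins were above 0, with a median log2 fold change of 0.16. *Elavl4* (HuD), which stabilises mRNAs of growing neurons, had the smallest p of all members. It gave 59.1, 56.3 and 58.5 CPM across the WT replicates and 63.7, 79.4 and 73.1 across the 5C replicates, a mean of 58.0 ± 1.46 against 72.1 ± 7.91 CPM (SD, n = 3). The WT libraries lay close together and the 5C libraries were spread above them, with a log2 fold change of 0.31 ± 0.09 (SE; 95% interval 0.11 to 0.51; edgeR unadjusted p = 0.00606, adjusted p = 0.781). Without the count filter its adjusted p was 0.0339 in the same test, and over the alternatives tried it ranged up to 0.9997; its change stayed under 1.5-fold throughout, so it was not a DEG under any.

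The other ELAV genes had smaller differences. *Elavl3* (HuC), a marker of postmitotic neurons, lay at 44.1, 43.9 and 40.8 CPM in the WT pools, while the 5C pools had 51.7, 45.0 and 45.0 CPM. Its genotypes did not overlap, but the gap between WT replicate 1 and the lower 5C libraries was small beside the spread, and the log2 fold change was 0.14 ± 0.08 (edgeR unadjusted p = 0.143). *Elavl2* (HuB) measured 64.8, 82.7 and 73.4 CPM in the WT libraries against 76.7, 85.3 and 85.4 CPM in the 5C libraries, with a log2 fold change of 0.16 ± 0.10 (edgeR unadjusted p = 0.120). Here WT replicate 2 was within the 5C range. *Rbfox3*, which codes for the NeuN antigen of mature neurons, was low, at 2.65 ± 0.56 CPM (WT) against 3.01 ± 0.179 CPM (5C), with a log2 fold change of 0.16 ± 0.27.

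**Figure D3:**
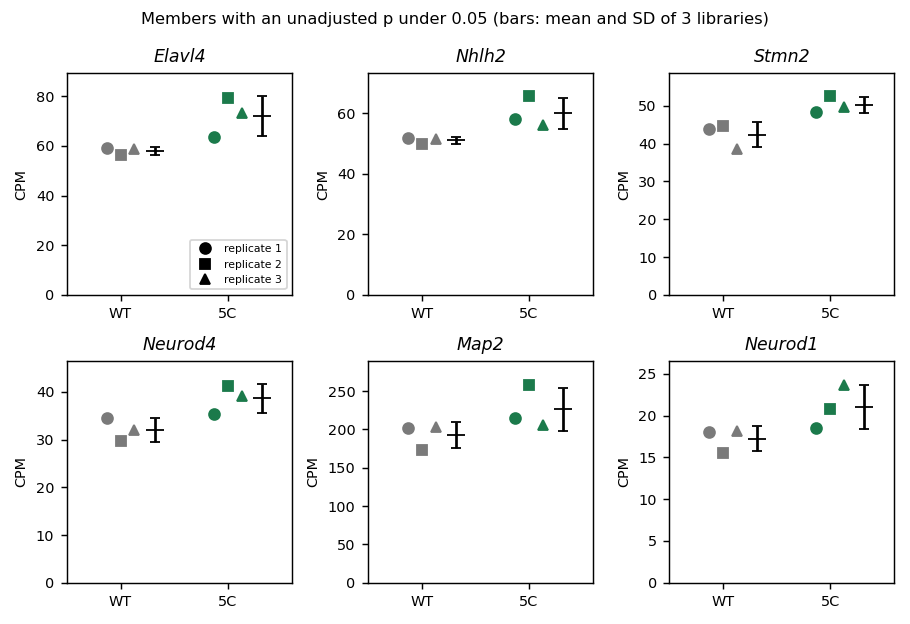
CPM in each library (y axis from 0) for the 6 members with an unadjusted p under 0.05, by genotype, with the symbol giving the replicate number and bars giving the mean and SD of 3 libraries. All 5C points lie above all WT points in each panel, and the highest is 5C replicate 2 in 5 panels and 5C replicate 3 for *Neurod1*.

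Among the 11 genes of the cytoskeleton and the growth cone, 9 were above 0 and the median log2 fold change was 0.05. *Stmn2*, a stathmin that regulates microtubules in growing axons, gave 43.8, 44.7 and 38.6 CPM across the WT replicates and 48.3, 52.6 and 49.6 across the 5C replicates. The genotypes did not overlap and the log2 fold change was 0.24 ± 0.08 (SE; edgeR unadjusted p = 0.0183). *Map2*, the microtubule protein of dendrites and cell bodies, lay at 201, 173 and 203 CPM in the WT pools, while the 5C pools had 215, 258 and 206 CPM. Here 5C replicate 3 exceeded WT replicate 3 by little, and 5C replicate 2 stood far above the rest, with a log2 fold change of 0.23 ± 0.10 (SE; edgeR unadjusted p = 0.0408).

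The most abundant axonal genes hardly differed. *Tubb3* measured 236, 229 and 211 CPM in the WT libraries against 247, 233 and 200 CPM in the 5C libraries, so the lowest and the highest library were both 5C, and the log2 fold change was 0.01 with a 95% interval of -0.19 to 0.20. *Gap43* gave 57.1, 66.6 and 51.4 CPM across the WT replicates and 59.3, 55.3 and 60.6 across the 5C replicates, a log2 fold change of -0.003 with a 95% interval of -0.22 to 0.22. *Nefl* lay at 155.5, 149.5 and 146 CPM in the WT pools, while the 5C pools had 167, 166 and 146 CPM, where replicate 3 was at the lowest WT level. Its log2 fold change was 0.09 ± 0.07, while that of *Nefm*, the medium neurofilament chain, was -0.12 ± 0.14. These neighbouring genes lie on opposite strands, and 32.8% of the *Nefl* and 19.16% of the *Nefm* exon bases overlap exons of another gene on the opposite strand. The setting of the strand in counting is not given in the sources used here, so their reads may be shared. *Stmn3*, *Ina*, *Dcx*, *Mapt* and *Prph* had log2 fold changes between 0.01 and 0.24, each with an interval that included 0. Thus *Stmn2* and *Map2* differed at the unadjusted threshold, and *Tubb3*, the most abundant member per kilobase, had an interval within 1.5-fold in either direction. The difference between *Stmn2* and *Tubb3* was itself not tested.

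The 3 synaptic genes, which serve membrane fusion, were low and had a median log2 fold change of -0.04. *Syt1*, the calcium sensor of transmitter release, measured 6.03, 5.50 and 6.06 CPM in the WT libraries against 5.09, 5.89 and 4.77 CPM in the 5C libraries. *Snap25*, a component of the fusion complex, gave 11.96, 11.2 and 11.5 CPM across the WT replicates and 11.3, 12.4 and 10.04 across the 5C replicates. The genotypes overlapped for both, with log2 fold changes of -0.16 ± 0.16 and -0.04 ± 0.13. *Syt4*, a synaptotagmin of immature neurons, lay at 5.30, 3.78 and 4.79 CPM in the WT pools, while the 5C pools had 5.21, 7.26 and 3.49 CPM, so 5C held both the highest and the lowest library, and the log2 fold change was 0.19 ± 0.27.

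Of the 6 subtype factors tested, 5 were above 0, with a median log2 fold change of 0.11 and none at an unadjusted p under 0.05. *Pou4f1* (Brn3a), a factor of sensory neurons, measured 16.5, 12.9 and 15 CPM in the WT libraries against 17.3, 17.7 and 17.4 CPM in the 5C libraries. The 5C libraries were nearly equal and all above WT, with a log2 fold change of 0.23 ± 0.12 (edgeR unadjusted p = 0.0790). *Isl1*, which marks motor and sensory neurons but is also made in heart progenitors, gave 53.5, 48.3 and 54.2 CPM across the WT replicates and 54.9, 59.8 and 57.5 across the 5C replicates, with a log2 fold change of 0.14 ± 0.08 (edgeR unadjusted p = 0.0979). The heart muscle markers were lower in 5C, as given above, and their part in this value was not tested. The motor neuron factors *Lhx3*, *Mnx1* and *Isl2* had log2 fold changes of 0.25 ± 0.19, 0.07 ± 0.26 and 0.03 ± 0.16. For *Lhx3* the libraries measured 3.94, 3.61 and 3.51 CPM for WT against 3.88, 4.10 and 5.27 CPM for 5C, with 5C replicate 3 the highest.

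*Phox2a*, a factor of noradrenergic and visceral motor neurons, had a negative difference, with 1.154, 1.202 and 1.117 CPM in the WT libraries against 0.97, 0.598 and 1.07 CPM in the 5C libraries. Every 5C library was below every WT library, but 5C replicate 2 and WT replicate 3 each rested on 7 counts. The log2 fold change of -0.38 ± 0.31 had a 95% interval of -1.06 to 0.31. *Dbh*, the enzyme that makes noradrenaline and is known as a target of the PHOX2 factors, was at 2.06 ± 0.875 CPM (WT) against 2.28 ± 0.546 CPM (5C). *Th*, the first enzyme of the same pathway, lay at 4.20, 4.21 and 5.90 CPM in the WT pools, while the 5C pools had 5.45, 5.04 and 4.77 CPM, with a log2 fold change of 0.13 ± 0.19. The log2 fold changes of these noradrenergic genes thus differed in sign, and none passed the test.

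Transmitter genes as a whole had a median log2 fold change of 0.06, with 4 above 0 and 2 below. *Slc17a6*, the vesicular glutamate carrier VGLUT2, measured 6.09, 6.27 and 7.02 CPM in the WT libraries against 7.33, 8.11 and 6.19 CPM in the 5C libraries, with a log2 fold change of 0.17 ± 0.16. *Chat* gave 1.102, 1.202 and 1.117 CPM across the WT replicates and 0.848, 1.02 and 1.07 across the 5C replicates. These came from only 21, 14 and 7 counts in WT and 14, 12 and 15 in 5C. After scaling every 5C library was lower, with a log2 fold change of -0.22 ± 0.30. *Gad1* lay at 2.89, 0.859 and 2.87 CPM in the WT pools, while the 5C pools had 2.30, 2.48 and 1.42 CPM. The value in WT replicate 2 came from 10 counts and deviated by -1.195 on the log2 scale from the mean of the 6 libraries, and *Gad2*, the other GABA enzyme, deviated by -0.62 in the same library.

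**Figure D4:**
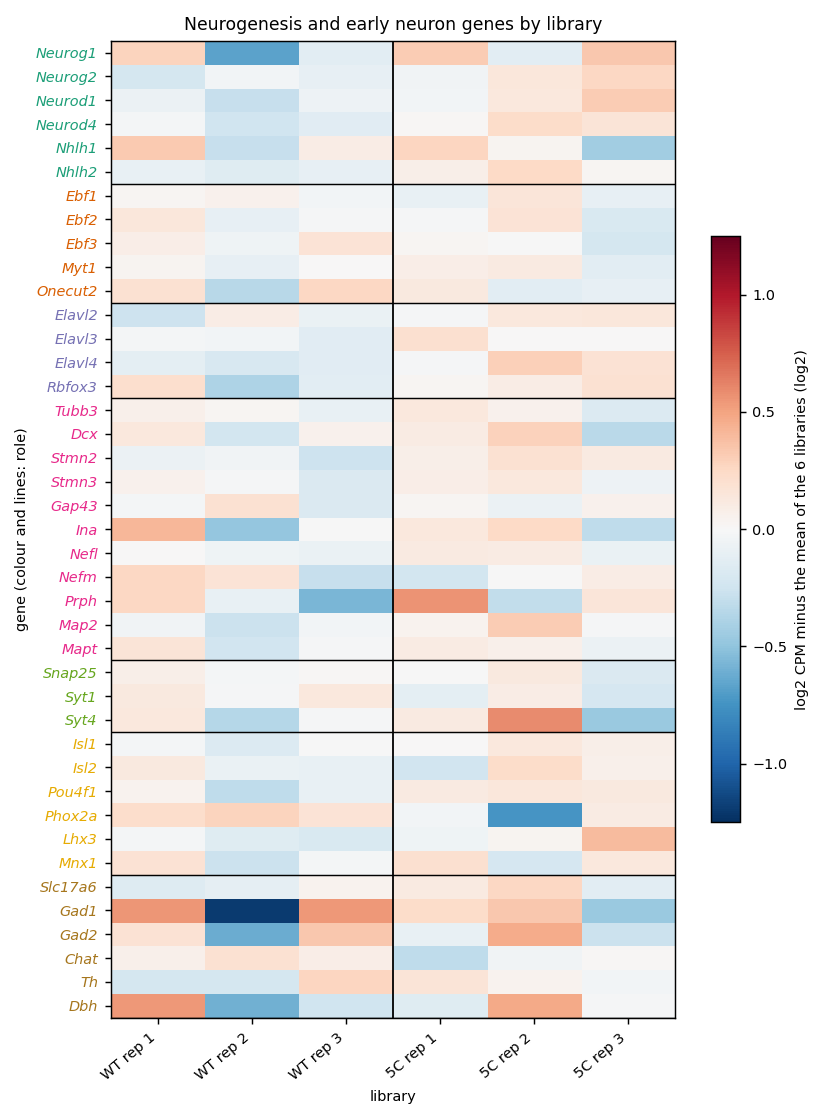
Log2 CPM of the 41 members tested in each of the 6 libraries, as the difference from that gene's mean over the libraries (colour, red above and blue below), in rows ordered by role and columns WT replicates 1 to 3 and 5C replicates 1 to 3. The deepest blue is *Gad1* in WT replicate 2, at -1.195, and the columns differ within each genotype as well as between the genotypes.

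The libraries differed over the members as a whole. The mean log2 deviation of the members was 0.08, -0.18 and -0.03 in WT replicates 1, 2 and 3 and 0.05, 0.11 and -0.03 in 5C. 5C replicate 2 was the highest library for 17 of the 42 members and WT replicate 2 the lowest for 16. Their counts made up 0.154% to 0.184% of a library, the lowest in WT replicate 2 and the highest in 5C replicate 2, which are the libraries low in Y-linked transcripts. The pooled SD of these mean deviations within a genotype was 0.11, beside a median log2 fold change of 0.07 between the genotypes. The SD is that of single libraries and the median compares groups of 3, so the SD is not the error of that median.

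The count of members at an unadjusted p under 0.05 changed when libraries were left out. Without 5C replicate 2 it was 1, *Elavl4*, without WT replicate 3 it was 2, *Nhlh2* and *Elavl4*, and without both libraries numbered 2 it was 0. Without WT replicate 1, the library rich in yolk sac transcripts, it was 7, and without WT replicate 2 it was 5. *Elavl4* was the 1 member that had an unadjusted p under 0.05 with each library left out in turn, from 0.00088 to 0.0394 (edgeR), and it was at 0.0880 without both libraries numbered 2. Its log2 fold change lay between 0.22 and 0.40 in these fits. Some of the members that lost the call kept a log2 fold change of about the same size. Without 5C replicate 2 it was 0.28 for *Neurod1*, 0.21 for *Neurod4*, 0.20 for *Stmn2*, 0.16 for *Nhlh2* and 0.12 for *Map2*. Without both libraries numbered 2 it was 0.24 for *Stmn2*, 0.22 for *Neurod1*, 0.16 for *Neurod4*, 0.14 for *Nhlh2* and 0.06 for *Map2*. The value of *Map2* thus fell furthest, and that of *Stmn2* did not fall without the libraries numbered 2. Leaving out 5C replicate 3 took *Neurod1* to 0.19. The median over the members lay between 0.04 and 0.15 with each library left out.

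The transcripts of the 6 members had a median GC content of 44.8% (38.0% to 50.0%), against 52.5% for the other members tested and 49.4% for all genes tested. With offsets for GC content fitted in each library, 7 members were higher at an unadjusted p under 0.05, and 4 of the 6 remained (*Nhlh2*, *Elavl4*, *Stmn2* and *Map2*). *Neurod4* then had a log2 fold change of 0.17 (edgeR unadjusted p = 0.0919) and *Neurod1* one of 0.25 (edgeR unadjusted p = 0.0564), while that of *Elavl4* was 0.23. With the offsets *Elavl3*, *Neurog2* and *Pou4f1* came under the threshold.

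**Figure D5:**
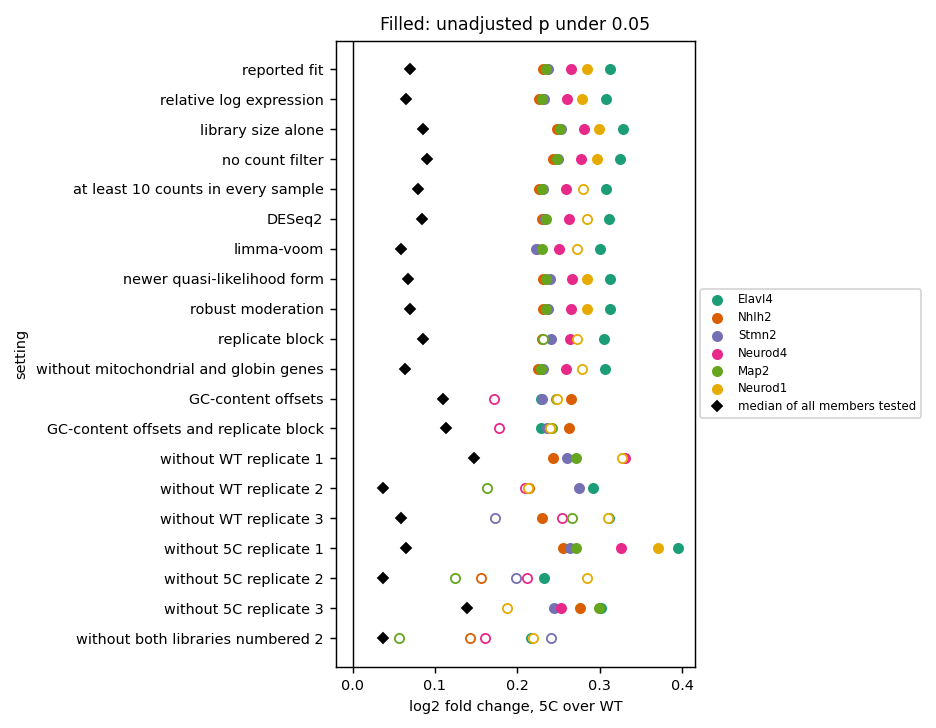
Log2 fold change, 5C over WT (x axis), of the 6 members of the plot by library under each way of processing (rows), filled where the unadjusted p was under 0.05, with the median of all members tested as a black diamond. Every point is right of 0, and the fewest filled points are in the rows without 5C replicate 2 (1, *Elavl4*) and without both libraries numbered 2 (0).

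Proneural factors bind E-boxes, and the forms CAGATG (or CATCTG, the same site read from the other strand) and CAGCTG were searched on both strands in the 250 bases before the RefSeq start sites. A member's start was found for 33 members, with 49 starts in all. CAGATG was in 18.4% of the member promoters against 14.4% of all 32851, CAGCTG in 16.3% against 13%, and either in 30.6% against 25.5%. The stretch of 30 bases around the matches is shown for *Elavl4* and *Nhlh2*, the members with the smallest p, with the E-boxes in capitals (RefSeq, GRCm38.p6). *Elavl4* has 4 listed starts, of which the one with the most matches was taken, and its first match begins 62 bases before the start. The match of *Nhlh2* begins 127 bases before its single start.
*Elavl4*, chr4:110287553-110287582, minus strand: gtctggcttCAGCTGaCAGATGgtcccata
*Nhlh2*, chr3:102010006-102010035, plus strand: cccacactgtgaCAGATGtcaagtccaatt

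Neither form was found in these windows for *Neurod1*, *Neurod4* and *Map2*, and *Stmn2* had no listed start. A match is not evidence of binding.

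The genes around the members in the pathway were measured too. Of 12 neural progenitor genes, 8 were above 0 and 4 below. At an unadjusted p under 0.05, 2 were higher and 0 lower, against 2.55% and 3.47% of all genes. In 2 of the 12, *Sox2* and *Pax6*, every 5C library lay above every WT library, against 6.26% of all genes. *Sox2*, which maintains neural progenitors, measured 74.2, 84.9 and 75.1 CPM in the WT libraries against 89.4, 92.6 and 95.9 CPM in the 5C libraries, with no overlap and a log2 fold change of 0.25 ± 0.08 (edgeR unadjusted p = 0.00923, adjusted p = 0.781). *Fabp7*, a lipid-binding protein of radial glia, had a log2 fold change of 0.24 (edgeR unadjusted p = 0.0382), and *Pax6*, a progenitor factor, one of 0.16 (edgeR unadjusted p = 0.0584). The median of the list, 0.02, was near that of all genes.

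In the Notch pathway 20 genes were tested, with 13 above 0 and 7 below and a median log2 fold change of 0.04. *Nrarp*, a target and feedback inhibitor of Notch, was higher at 0.22 ± 0.07 (edgeR unadjusted p = 0.0115). The receptor *Notch2* was lower at -0.28 ± 0.08 (edgeR unadjusted p = 0.00879), and so was the coactivator *Maml1* at -0.40 ± 0.16 (edgeR unadjusted p = 0.0327). None was a DEG. Of 43 other neuronal genes 38 were tested, 20 above 0 and 18 below, with a median of 0.02 and 0 at an unadjusted p under 0.05 in edgeR in either direction. The smallest p there belonged to *St18*, *Lhx5* and *Stmn4*, with log2 fold changes of 0.16, 0.22 and 0.20. The background shares of 2.55% and 3.47% amount to few genes in a list of this size, and the difference from the members was not tested.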

How the data were processed

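RNA from pools of E10.5 whole embryos was made into stranded poly(A) libraries. Per the labels and the study's methods, the authors aligned the reads to GRCm38 with STAR, and they deposited raw gene counts, which are the unit used here. The setting of the strand in counting is not given in the sources used here. All 6 libraries were used and grouped by the genotype in the labels, 3 WT and 3 5C. Where nothing says how pools relate to litters, p-values measure the spread between these libraries.

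Of 55401 identifiers, 55141 matched GENCODE M21 (GRCm38). Genes were filtered with filterByExpr, scaled by TMM and tested with edgeR 4.0.16 (quasi-likelihood, R 4.3.3), and p-values were adjusted by Benjamini-Hochberg over 16784 genes. CPM used TMM-scaled totals. SE and 95% intervals were derived from the test's p. A count of 3, the limit that a count of 0 allows, was 0.157 to 0.472 CPM, for counting error only. The biological coefficient of variation was 13.6%. Scripts were checked on simulated data. Of 200 genes changed 2-fold, 67.5% were called as DEGs, with 21 false calls. Of 200 changed 4-fold, 94.5% were called, with 16 false calls, and with no change there were 0. Changes under 2-fold, as in the members, were not simulated. DESeq2 1.42.0, limma-voom (limma 3.58.1), other scalings, filters, GC offsets, a replicate block and left-out libraries were alternatives.

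The members and lists were chosen with earlier results of these data known. All members were accounted for by role. Values by library were given for members with an unadjusted p under 0.05, the 3 smallest p per role and the 3 most and least abundant per length, and other lists by at most 3 genes.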

Additional observations from a re-analysis of the deposited data

How the results depend on the processing

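No member was a DEG under any alternative. The number of members higher at an unadjusted p under 0.05 was 6, and with single libraries left out it ran from 1 (without 5C replicate 2) to 7; without WT replicate 3 it was 2 and without both libraries numbered 2 it was 0. The number lower was 0, and 0 to 1 with single libraries left out (*Onecut2* without WT replicate 2, *Nefm* without WT replicate 3). By replicate number, the deviations of same-numbered libraries correlated at -0.174, 0.202 and -0.166, and those of the other pairs at -0.199 to 0.307. So few libraries per genotype cannot settle whether the numbers pair the samples, and both libraries numbered 2 were low in Y-linked transcripts. With the replicate block 4 members were higher (*Stmn2*, *Elavl4*, *Neurod4* and *Nhlh2*) and the median log2 fold change was 0.09. The genotypes of 11 members did not overlap upwards under library size alone, against 9 under TMM and relative log expression, and 2 downwards under each.

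Of 777 single-member values, 715 kept their direction and their side of an adjusted p of 0.05. In the reported fit every member had an edgeR adjusted p of 0.781 or more, so few could cross that line. Crossings of an unadjusted p of 0.05 do not enter these counts. Only 1 value came under the adjusted threshold (*Elavl4*, log2 fold change 0.32 without the count filter, edgeR adjusted p = 0.0339). A further 61, over 18 members of which none had an unadjusted p under 0.05, changed sign. The cause was not tested. Without both libraries numbered 2 the log2 fold change of *Myt1* was -0.046, *Tubb3* -0.0034, *Dcx* -0.20, *Gap43* 0.14, *Ina* -0.32, *Mapt* -0.067, *Syt4* -0.22, *Isl2* -0.11, *Gad2* -0.42 and *Dbh* -0.37. Under limma-voom that of *Tubb3* was -0.0008, *Ina* -0.0082, *Isl2* -0.011 and *Gad1* 0.027. With GC offsets *Dcx* was at -0.016 and *Gap43* at 0.025, and with GC offsets and the replicate block *Dcx* was at -0.026, *Gap43* at 0.035 and *Gad1* at 0.0060. *Gap43* was at 0.013 under library size alone, 0.0095 without the count filter and 0.0045 with the replicate block, and *Ina* at -0.0012 with at least 10 counts in every sample and -0.00028 without mitochondrial and globin genes. With single libraries left out the log2 fold changes ran from -0.26 to 0.10 (*Nhlh1*), -0.11 to 0.023 (*Ebf1*), -0.12 to 0.062 (*Ebf2*), -0.0072 to 0.12 (*Myt1*), -0.25 to 0.010 (*Onecut2*), -0.057 to 0.092 (*Tubb3*), -0.097 to 0.20 (*Dcx*), -0.086 to 0.10 (*Gap43*), -0.21 to 0.29 (*Ina*), -0.053 to 0.17 (*Mapt*), -0.12 to 0.036 (*Snap25*), -0.092 to 0.42 (*Syt4*), -0.077 to 0.15 (*Isl2*), -0.0007 to 0.47 (*Prph*), -0.045 to 0.22 (*Mnx1*), -0.48 to 0.30 (*Gad1*), -0.19 to 0.21 (*Gad2*) and -0.18 to 0.56 (*Dbh*).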
